A study of Homo sapiens with 24 samples.

Results

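The genes described here are the DEAD-box (DDX) and DEAH-box (DHX) RNA helicases of K562 cells, an established human line from a chronic myelogenous leukaemia, followed through knockdown of 1 of their number, DDX3X. They were taken by name, as every protein-coding gene whose symbol is DDX or DHX and a number. A final A, B or X was allowed for DDX. The 3 symbols DHX9, DDX58 and DHX58 were left out, and other forms such as DDX3Y lie outside this pattern and were not read. This gave 50 genes, 36 of them DDX and 14 DHX, among the 57992 genes used. The sgDDX3 cells carried a guide RNA against DDX3X and the sgGal4 cells a control guide. Both lines held an inducible CRISPR interference repressor, switched on with doxycycline at 50 ng/ml and brought to a promoter by the guide. Cells were taken at days 0, 3 and 14, and the labels do not say whether day 0 cells had yet received doxycycline. At each day and for each guide 2 libraries were made of ribosome footprints and 2 of cytosolic RNA, which gave 12 groups and 24 libraries. Nothing in the labels tells if the lines are clones, or if the 2 libraries of a group came from different cultures, so the spread that the p-values measure may be technical. The comparison asks whether other helicases of the family were higher where DDX3X was lower.

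DEAD-box and DEAH-box proteins use ATP to bind, unwind or remodel RNA and RNA-protein complexes, and both names come from the amino acid letters of a shared ATPase motif. DEAD-box members mostly open short duplexes locally, whereas DEAH-box members can move along a strand, and members of both take part in splicing, ribosome assembly, mRNA export, translation and decay. DDX3X helps the small ribosomal subunit to start on mRNAs with structured leaders. Roles below are background knowledge of the human genes or of their yeast counterparts, and are not results of these libraries.

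Depth was 10266619 to 43256563 counts for RNA and 6223963 to 15240512 counts for footprints, and levels are given in CPM, the counts of a gene per 1000000 counts of its library. A count of 0 allows up to 3 counts, which are 0.207 CPM in the median RNA library and 0.317 CPM in the median footprint library, for counting error only. The K562 genes HBZ, HBG2, GATA1, TAL1, ALAS2 and CD33 had counts in all 12 libraries of each assay, whereas MS4A1, a B-cell gene, had 0 counts in RNA. The 2 sgDDX3 footprint libraries of day 3 stood apart from each other. Replicate 2 was higher than replicate 1 for 36 of 45 tested helicases, with a median ratio of 1.21. Most summaries that rest on these libraries are given with and without each of them. Counts nearly as uneven occurred in other footprint groups, with 32 of 45 higher in sgGal4 at day 3 and 33 of 45 lower in sgDDX3 at day 14. The median ratios of the other groups were 0.94 to 1.04.

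Low counts kept 4 helicases out of the RNA tests. The germline helicases DDX4 and DDX43 had 0 counts in every RNA library, the testis helicase DDX25 had at most 1 and the interferon-induced DDX60 at most 2. In footprints these 4 again stayed out, and DDX47, a ribosome assembly factor, joined them with 0 to 4 counts in any footprint library, against 10 to 60 in RNA. The tests below therefore cover 46 helicases in RNA and 45 in footprints, and say nothing of the others. Whether the low counts of DDX47 reflect its level or the assignment of its reads was not tested.

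DDX3X, the targeted gene, was lower with sgDDX3 at day 3 and less so at day 14, in RNA and in footprints alike. In RNA at day 3 it had 39.0 and 33.7 CPM in the sgDDX3 libraries, against 185 and 174 CPM in the sgGal4 libraries. Its RNA at day 14 was 134 and 101 CPM with sgDDX3, against 201 and 187 CPM with sgGal4. The groups did not overlap at either day, and the sgDDX3 mean was 20.2% of the sgGal4 mean at day 3 and 60.6% at day 14. On the log2 scale the difference, sgDDX3 over sgGal4, was -2.29 ± 0.11 at day 3 (standard error, SE, edgeR quasi-likelihood F-test, adjusted p = 1.6e-11) and -0.72 ± 0.10 at day 14 (adjusted p = 4.0e-05). Footprints gave 29.3 and 38.9 CPM with sgDDX3 at day 3, against 140.3 and 142 CPM with sgGal4, and 109 and 101 CPM with sgDDX3 at day 14, against 154 and 167 CPM with sgGal4. Both footprint differences passed, at -2.04 ± 0.12 on day 3 (adjusted p = 2.4e-06) and -0.61 ± 0.11 on day 14 (adjusted p = 0.0093). Without sgDDX3 replicate 1 or 2 of day 3 the footprint difference of that day was -1.86 or -2.28. The day 14 footprint call was lost without replicate 2 of sgDDX3 (-0.56, adjusted p = 0.060).

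The guide difference of DDX3X was smaller at day 14 than at day 3, and this change between the days passed its own test, at 1.57 ± 0.14 in RNA (adjusted p = 7.2e-06) and 1.43 ± 0.16 in footprints (adjusted p = 0.0058). Whether this came from fewer cells with the knockdown or from a higher level in each cell cannot be told apart in bulk libraries. At day 0 the sgDDX3 libraries already read a little lower, with 175 and 185 CPM of RNA against 215 and 203 CPM in sgGal4, a difference of -0.21 ± 0.10 that did not pass (adjusted p = 1.0). DDX3X footprints per RNA, the translational efficiency, differed between the guides by 0.23 ± 0.17 at day 3 and 0.12 ± 0.15 at day 14 on the log2 scale, and neither passed (adjusted p = 0.52 and 0.84), the day 3 value being 0.42 or 0.01 without sgDDX3 footprint replicate 1 or 2. DDX3X lies on the plus strand of chromosome X, and the bases before its first RefSeq start are shown because CRISPR interference acts at promoters. The window is chrX:41333058-41333307 (GRCh38.p14), 250 bases, 72.8% G and C. None of the 5 sets of letters searched for in the promoters described further down was found in it, so that it has no capitals. The position of the guide is not given in the sources used here.
DDX3X: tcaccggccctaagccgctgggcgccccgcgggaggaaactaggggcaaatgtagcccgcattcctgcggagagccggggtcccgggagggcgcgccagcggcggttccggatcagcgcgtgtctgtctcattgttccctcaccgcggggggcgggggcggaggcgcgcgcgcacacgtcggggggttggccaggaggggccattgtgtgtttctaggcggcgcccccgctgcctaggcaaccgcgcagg

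**Figure D1:**
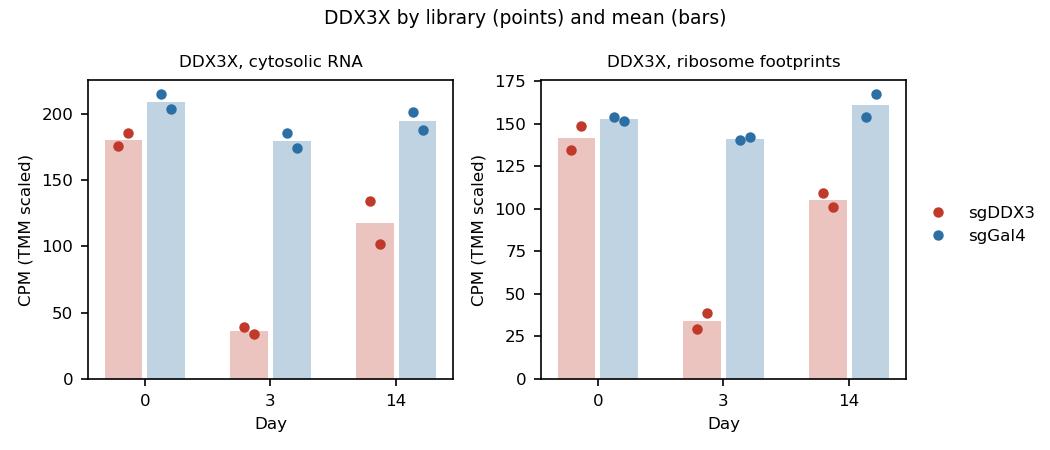
DDX3X in each library (points) and its group mean (bars) by day, in cytosolic RNA (left) and ribosome footprints (right), in scaled CPM, with sgDDX3 in red and sgGal4 in blue. Both red points lie below both blue points at every day, with red RNA means of 36.3 CPM at day 3 and 118 CPM at day 14.

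At day 3, RNA of 4 other helicases was lower and of 2 was higher with sgDDX3, and the rest did not pass. With DDX3X this makes 5 of 46 lower, 10.9% of the tested members where 6.39% of all 18287 genes tested were lower, and 2 of 46 higher, 4.35% where 7.68% of all genes were higher. Of protein-coding genes alone, 8.52% were lower and 10.8% higher. DHX37 was also called higher in DESeq2 (0.33, adjusted p = 0.042). In edgeR without a low-count filter, DHX37 (0.31, adjusted p = 0.010) and DHX16 (0.29, adjusted p = 0.041) were called higher. Without sgDDX3 replicate 1 the calls were 4 in all, among them DHX16 (0.45) and DHX37 (0.49) as higher, without sgDDX3 replicate 2 they were 8, among them DDX23 (-0.39), DDX27 (-0.36) and DDX56 (-0.34) as lower, and without sgGal4 replicate 1 or 2 they were 2. The median log2 difference of the 45 helicases other than DDX3X was -0.02, and that of all genes -0.01.

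Of the 4 that fell, 2 work in ribosome assembly in the nucleolus. DDX52, the counterpart of a yeast factor of the small subunit, had 33.0 and 35.3 CPM of RNA with sgDDX3, against 43.7 and 45.7 CPM with sgGal4 (log2 difference -0.39 ± 0.10, adjusted p = 0.0076). DDX21, which binds ribosomal RNA and small nucleolar RNAs, had 263 and 268 CPM with sgDDX3, against 315 and 307 CPM with sgGal4 (-0.23 ± 0.07, adjusted p = 0.022). DHX15, which takes spliceosomes apart after splicing, had 121 and 131 CPM with sgDDX3, against 148 and 149.8 CPM with sgGal4 (-0.24 ± 0.07, adjusted p = 0.028). DDX1, known from tRNA ligation and transcript processing, had 112 and 123 CPM with sgDDX3, against 134 and 143 CPM with sgGal4 (-0.24 ± 0.08, adjusted p = 0.049). As in 11 of 46 tested helicases and 27.4% of all genes tested, both sgDDX3 libraries lay below both sgGal4 libraries in these 4 genes. Their footprints at day 3 did not pass, with differences of -0.00 for DDX52, -0.01 for DDX21, 0.02 for DHX15 and 0.17 for DDX1. Without sgDDX3 footprint replicate 1 these were 0.17, 0.24, 0.22 and 0.36 in that order, and without replicate 2 they were -0.22, -0.33, -0.23 and -0.07. None of the 4 passed in RNA at day 14 (-0.06 for DDX52, -0.10 for DDX21, 0.05 for DHX15 and 0.13 for DDX1), except DDX1 without sgDDX3 replicate 2 of that day (0.24, adjusted p = 0.044).

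The 4 calls are small and rest on few libraries. DDX52 did not pass without sgDDX3 replicate 1 (-0.34) or sgGal4 replicate 2 (-0.36), DHX15 without sgDDX3 replicate 1 (-0.18) or either library of sgGal4 (-0.25 and -0.23), DDX21 without any 1 of the 4 (-0.24 to -0.21), and DDX1 without sgDDX3 replicate 1 (-0.17) or either library of sgGal4 (-0.29 and -0.19), nor under other size factors (adjusted p = 0.051) or with the replicate block (adjusted p = 0.068).

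**Figure D2:**
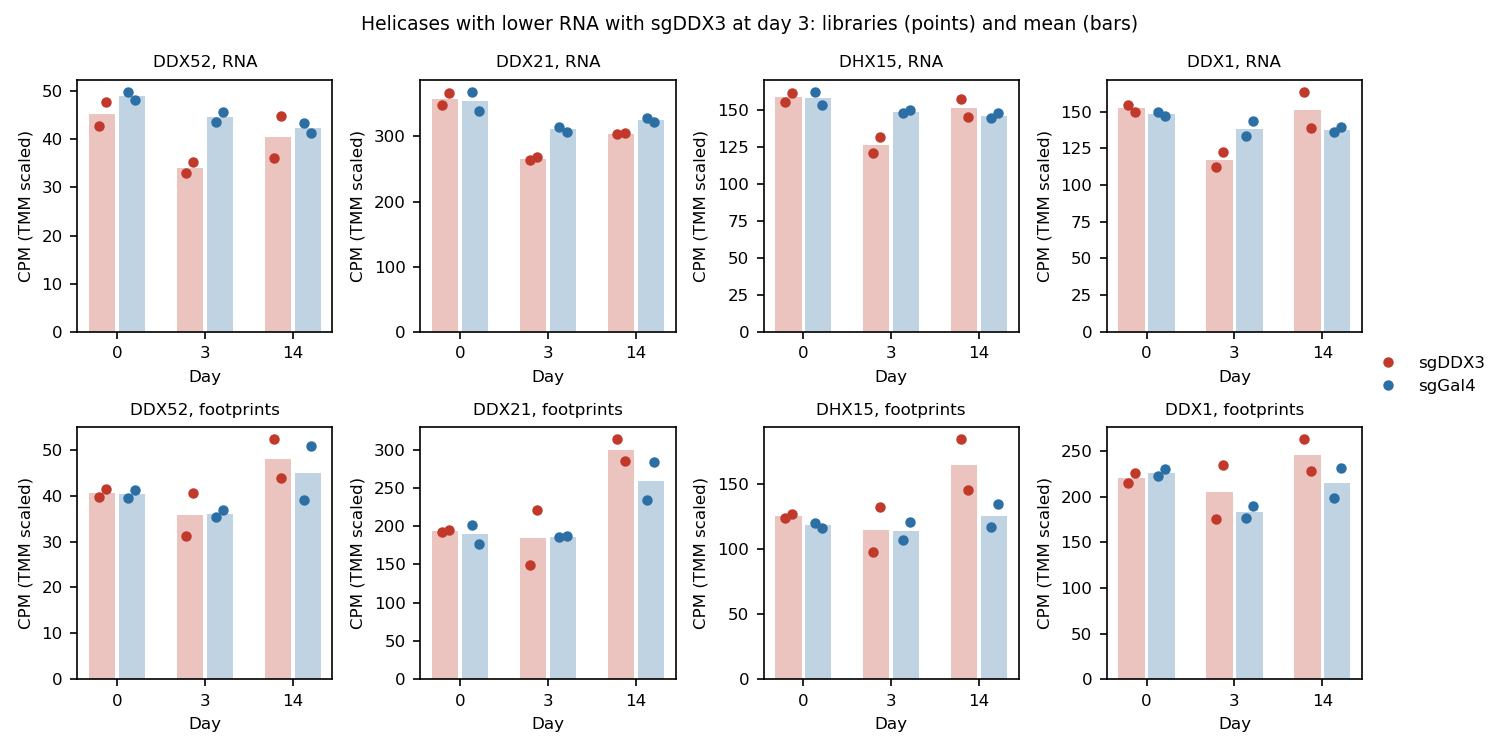
DDX52, DDX21, DHX15 and DDX1 by library (points) and group mean (bars) at each day, RNA in the upper row and footprints in the lower, in scaled CPM, sgDDX3 in red and sgGal4 in blue. At day 3 the red RNA points lie below the blue ones in all 4 panels, as for DDX52 at 33.0 and 35.3 against 43.7 and 45.7 CPM, while the red footprint points of day 3 lie on both sides of the blue ones.

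The 2 helicases whose RNA rose at day 3 were DDX59 and DHX30. DDX59, a gene in which variants are known to cause an orofaciodigital syndrome, had 30.5 and 27.3 CPM of RNA with sgDDX3, against 21.6 and 23.4 CPM with sgGal4 (0.39 ± 0.09, adjusted p = 0.0077). DHX30, which assembles the mitochondrial ribosome and also occurs in the cytosol, had 118 and 165 CPM with sgDDX3, against 109 and 114 CPM with sgGal4 (0.33 ± 0.11, adjusted p = 0.047). In both genes the 2 sgDDX3 libraries lay above both sgGal4 libraries, as in 9 of 46 tested helicases and 26.3% of all genes tested. The DHX30 libraries of sgDDX3 lay far apart, and without sgDDX3 replicate 2 the DHX30 difference was 0.09 and did not pass. Without sgGal4 replicate 1 or 2 it was 0.30 or 0.37 and did not pass either, and with the replicate number as a block adjusted p = 0.064. The DDX59 call needed sgDDX3 replicate 1 (0.29 when left out) and sgGal4 replicate 1 (0.32 when left out).

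In footprints at day 3, DHX30 rose and DDX3X fell, and no other helicase passed. That is 1 of 45 higher, 2.22% where 1.55% of all 19780 genes tested were higher, and 1 of 45 lower, 2.22% where 2.25% of all genes were lower. DHX30 footprints were 82.8 and 114 CPM with sgDDX3, against 67.4 and 69.8 CPM with sgGal4 (0.52 ± 0.13, adjusted p = 0.043). Without sgDDX3 replicate 2 the difference was 0.27 (adjusted p = 0.32), without sgGal4 replicate 1 or 2 it was 0.47 or 0.53 and did not pass, and with the block the call was lost (adjusted p = 0.0501). Without sgDDX3 replicate 1, the lower of the pair that stood apart, 6 helicases passed, the added ones being DDX24 (0.53), DDX5 (0.63), DHX29 (0.62) and DHX36 (0.63). The median difference of the 44 helicases other than DDX3X was 0.15 in footprints, against 0.02 for all genes, and it was 0.22 or -0.05 without sgDDX3 replicate 1 or 2.

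At day 14, 8 helicases were higher with sgDDX3 in at least 1 assay, and DDX3X was the 1 helicase that was lower, although RNA of DDX56, a ribosome assembly factor, was also called lower without sgDDX3 replicate 1 (-0.39, adjusted p = 0.010) and without a low-count filter (-0.28, adjusted p = 0.041). In RNA 7 of 46 were higher, 15.2% where 8.44% of all genes were higher, and 1 of 46 lower, 2.17% where 6.18% of all genes were lower. In footprints 5 of 45 were higher, 11.1% where 2.11% of all genes were higher, and 1 of 45 lower, 2.22% where 1.29% of all genes were lower. DHX30, DHX29, DDX24 and DHX16 were higher in both assays. DHX57 was higher in footprints, and DDX5, DDX59 and DDX53 in RNA. Of protein-coding genes alone, 11.7% were higher in RNA and 2.39% in footprints at this day. Without sgDDX3 replicate 2, RNA of DHX37 (0.43), DDX51 (0.38), DDX46 (0.32) and DDX1 (0.24) was also called higher. The number of helicases called was 3 in RNA without sgGal4 replicate 1 and 5 without sgGal4 replicate 2, and in footprints 1 or 2 without sgDDX3 replicate 1 or 2 and 2 or 3 without sgGal4 replicate 1 or 2.

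DHX29, like DDX3X, has a known role in initiation, where it binds the small ribosomal subunit and helps it through structured leaders. Its RNA at day 14 was 53.0 and 48.8 CPM with sgDDX3, against 36.6 and 41.8 CPM with sgGal4, which is 1.29-fold (log2 difference 0.36 ± 0.09, adjusted p = 0.010). Its footprints were 57.2 and 53.6 CPM with sgDDX3, against 35.2 and 40.8 CPM with sgGal4, which is 1.46-fold (0.54 ± 0.12, adjusted p = 0.031). Both sgDDX3 libraries lay above both sgGal4 libraries in both assays, as in 26.3% of all genes tested in RNA and 23.5% in footprints. At day 3 the footprints of DHX29 were 34.0 and 43.0 CPM with sgDDX3, against 29.0 and 26.5 CPM with sgGal4, and did not pass (0.47 ± 0.13, adjusted p = 0.070).

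DHX30 had 193 and 168 CPM of RNA with sgDDX3 at day 14, against 125 and 141 CPM with sgGal4 (1.36-fold, 0.44 ± 0.11, adjusted p = 0.0094). Its footprints were 160.5 and 151 CPM with sgDDX3, against 100.2 and 94.3 CPM with sgGal4 (1.60-fold, 0.68 ± 0.13, adjusted p = 0.011). It was the only helicase besides DDX3X that passed in both assays at both days, in the fit of all libraries.

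DDX24, a nucleolar helicase of the large ribosomal subunit, had the largest footprint difference at day 14 among the helicases that passed. These footprints were 105 and 101 CPM with sgDDX3, against 55.4 and 62.9 CPM with sgGal4 (1.75-fold, 0.80 ± 0.15, adjusted p = 0.012). Its RNA was 70.3 and 65.9 CPM with sgDDX3, against 48.7 and 54.5 CPM with sgGal4 (1.31-fold, 0.39 ± 0.10, adjusted p = 0.011). At day 3 neither assay passed for DDX24, with differences of -0.04 in RNA and 0.23 in footprints. DHX16, the human counterpart of the yeast helicase that activates the spliceosome for its first step, had 78.7 and 65.0 CPM of RNA with sgDDX3 at day 14, against 55.8 and 52.3 CPM with sgGal4 (1.34-fold, 0.42 ± 0.10, adjusted p = 0.0084). Its footprints were 76.7 and 70.6 CPM with sgDDX3, against 52.7 and 46.1 CPM with sgGal4 (1.49-fold, 0.58 ± 0.13, adjusted p = 0.029).

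These 4 were called in both assays with all libraries, and each lost its call in some fits that left out 1 library. In RNA, DHX30 did not pass without sgDDX3 replicate 1 (0.34) or without sgGal4 replicate 1 (0.37), DHX29 without the same 2 libraries (0.30 and 0.30), DHX16 without sgDDX3 replicate 1 (0.28) or sgGal4 replicate 2 (0.37), and DDX24 without sgGal4 replicate 1 (0.33), while in footprints DHX30 did not pass without sgDDX3 replicate 1 (0.63) or sgGal4 replicate 2 (0.62), DDX24 without sgDDX3 replicate 1 (0.76) or sgGal4 replicate 1 (0.72), DHX29 without sgDDX3 replicate 1 or 2 or sgGal4 replicate 1 (0.45 to 0.59), and DHX16 without any 1 of the 4 (0.47 to 0.68).

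**Figure D3:**
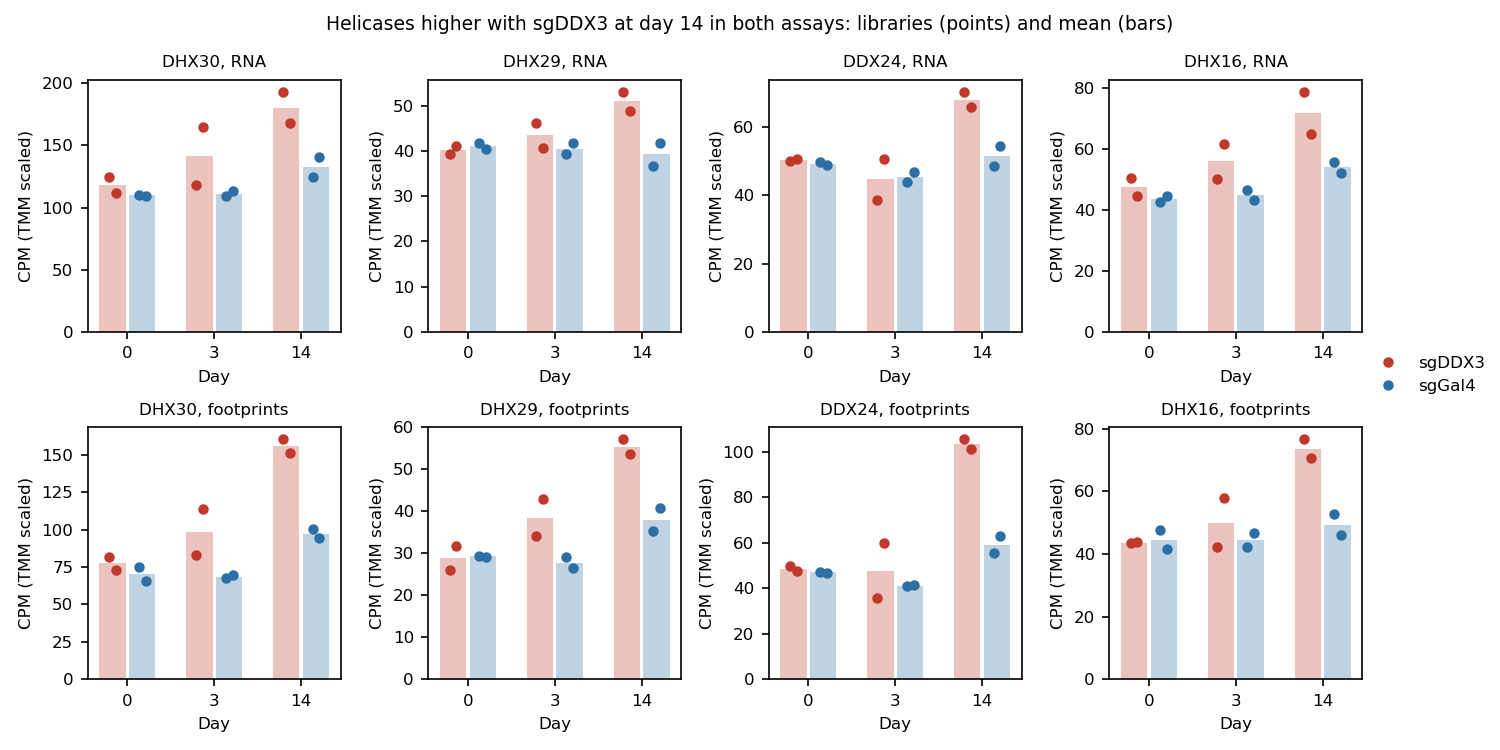
DHX30, DHX29, DDX24 and DHX16 by library (points) and group mean (bars) at each day, RNA in the upper row and footprints in the lower, in scaled CPM, sgDDX3 in red and sgGal4 in blue. At day 14 both red points lie above both blue points in all 8 panels. The largest log2 difference is in DDX24 footprints (0.80), at 105 and 101 against 55.4 and 62.9 CPM. In CPM the difference of means is larger in DHX30 footprints, at 58.5 CPM against 44.1 CPM for DDX24.

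The other helicases called at day 14 passed in 1 assay each. DHX57, a helicase with little known function, had footprints of 24.4 and 21.7 CPM with sgDDX3, against 14.4 and 15.2 CPM with sgGal4 (1.57-fold, 0.65 ± 0.15, adjusted p = 0.032), a call lost without any 1 of the 4 libraries (0.55 to 0.72) and in DESeq2 (adjusted p = 0.078). Its RNA was 23.3 and 26.9 CPM with sgDDX3, against 18.8 and 21.3 CPM with sgGal4, and did not pass (0.30 ± 0.12, adjusted p = 0.10). DDX5, which acts in splicing and as a transcription coactivator, had 419 and 448 CPM of RNA with sgDDX3, against 358 and 379.6 CPM with sgGal4 (1.18-fold, 0.23 ± 0.07, adjusted p = 0.029), a call lost without sgDDX3 replicate 2 (0.17) or either sgGal4 library (0.20 and 0.28), and without a low-count filter (0.20, adjusted p = 0.080). DDX5 footprints were 508 and 480.3 CPM with sgDDX3, against 308 and 380.1 CPM with sgGal4. That difference of 0.52 ± 0.16 did not pass in edgeR with the low-count filter (adjusted p = 0.10), and it passed in edgeR without that filter (0.50, adjusted p = 0.00024) and in DESeq2 (adjusted p = 0.032).

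DDX59 RNA was 25.0 and 26.9 CPM with sgDDX3 at day 14, against 20.7 and 21.2 CPM with sgGal4 (1.24-fold, 0.31 ± 0.10, adjusted p = 0.046), and its footprints did not pass (0.11 ± 0.18). The DDX59 call was lost in 7 of 8 other settings, among them each fit without 1 of the 4 libraries (0.24 to 0.36). DDX53, an X-linked cancer-testis gene, had the largest RNA difference (1.89 ± 0.37, adjusted p = 0.0013) on few counts. It had 38 and 26 counts in the sgDDX3 RNA libraries and 6 and 25 in the sgGal4 libraries, which is 3.23 and 2.35 CPM with sgDDX3, against 0.577 and 0.822 CPM with sgGal4. The sgGal4 level of DDX53 RNA was itself 1.80 and 1.61 CPM at day 3, and its footprint difference at day 14 did not pass (1.18 ± 0.46, adjusted p = 0.20).

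DDX6 and DDX21, among the genes that mark the family, did not pass at day 14. DDX6, which works with decapping factors and in P-bodies, had 212 and 253 CPM of RNA with sgDDX3, against 206 and 206 CPM with sgGal4 (0.17 ± 0.08, adjusted p = 0.15), and footprints of 165 and 158 CPM with sgDDX3, against 119 and 140 CPM with sgGal4 (0.32 ± 0.11, adjusted p = 0.12). Without sgDDX3 replicate 1 DDX6 RNA passed (0.30, adjusted p = 0.0089). DDX21 had footprints of 314 and 285 CPM with sgDDX3, against 234 and 284 CPM with sgGal4 (0.21 ± 0.15, adjusted p = 0.52), and DHX15 had 184 and 145 CPM with sgDDX3, against 117 and 134 CPM with sgGal4 (0.39 ± 0.14, adjusted p = 0.16). DHX15 footprints passed in edgeR without a low-count filter (0.36, adjusted p = 0.044). The most counted members of the remaining roles did not pass in either assay at day 3 or 14. They were DDX17, a coactivator related to DDX5 (footprints at day 14 0.19 ± 0.08), DDX19B, an export factor at the nuclear pore (0.11 ± 0.14), DDX11, a DNA helicase of sister chromatid cohesion (0.09 ± 0.16), and DHX40, of little known function (0.10 ± 0.12).

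Beyond the calls, footprints of most helicases read higher with sgDDX3 at day 14. Of the 44 other than DDX3X, 41 had a log2 difference above 0, with a range of -0.16 to 1.18 and a median of 0.20. Over all genes the share above 0 was 50.7% and the median 0.00. In 29 of the 45 both sgDDX3 libraries lay above both sgGal4 libraries and in 2 of the 45 below, where 23.5% of all genes tested lay above and 20.6% below. At day 0 these numbers were 15 and 5 of 45, where 18.0% of all genes lay above and 19.3% below. The adjusted test called 5 of the 45 higher, as given above, and at an unadjusted p under 0.05 there were 18 of 45, where 17.3% of all genes reached it. RNA at day 14 had 30 of 45 above 0 and a median of 0.06, against -0.01 for all genes.

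By role, 8 of the 12 splicing helicases had footprint differences above 0 at day 0, with a median of 0.10. At day 3 all 12 were above 0, from 0.02 to 0.33 with a median of 0.17, which was not read without either sgDDX3 library. At day 14 all 12 were above 0, from 0.13 to 0.58 with a median of 0.30, and 1 of them, DHX16, passed. DDX46, which acts in the assembly of the early spliceosome, read 0.41 ± 0.15 without passing. It passed in edgeR without a low-count filter (0.38, adjusted p = 0.038). DDX39B, which loads the export machinery on spliced mRNA, read 0.48 ± 0.19 at day 14 and 0.58 ± 0.19 already at day 0, without passing at either day. Without a low-count filter its day 0 difference was called (0.54, adjusted p = 0.023). Among 15 ribosome assembly helicases 12 were above 0, with a median of 0.10, from -0.16 for DDX56 to 0.80 for DDX24, and DDX24 alone passed. The 3 of mRNA decay and G-quadruplex unwinding were above 0 without passing, with DHX36, which opens G-quadruplexes, at 0.44 ± 0.16. DHX36 passed in edgeR without a low-count filter (0.41, adjusted p = 0.033). By family, all 14 DHX genes were above 0 with a median of 0.32 and 4 passed, whereas 27 of 31 DDX genes were above 0 with a median of 0.18, and 1 passed as higher and 1 as lower.

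**Figure D4:**
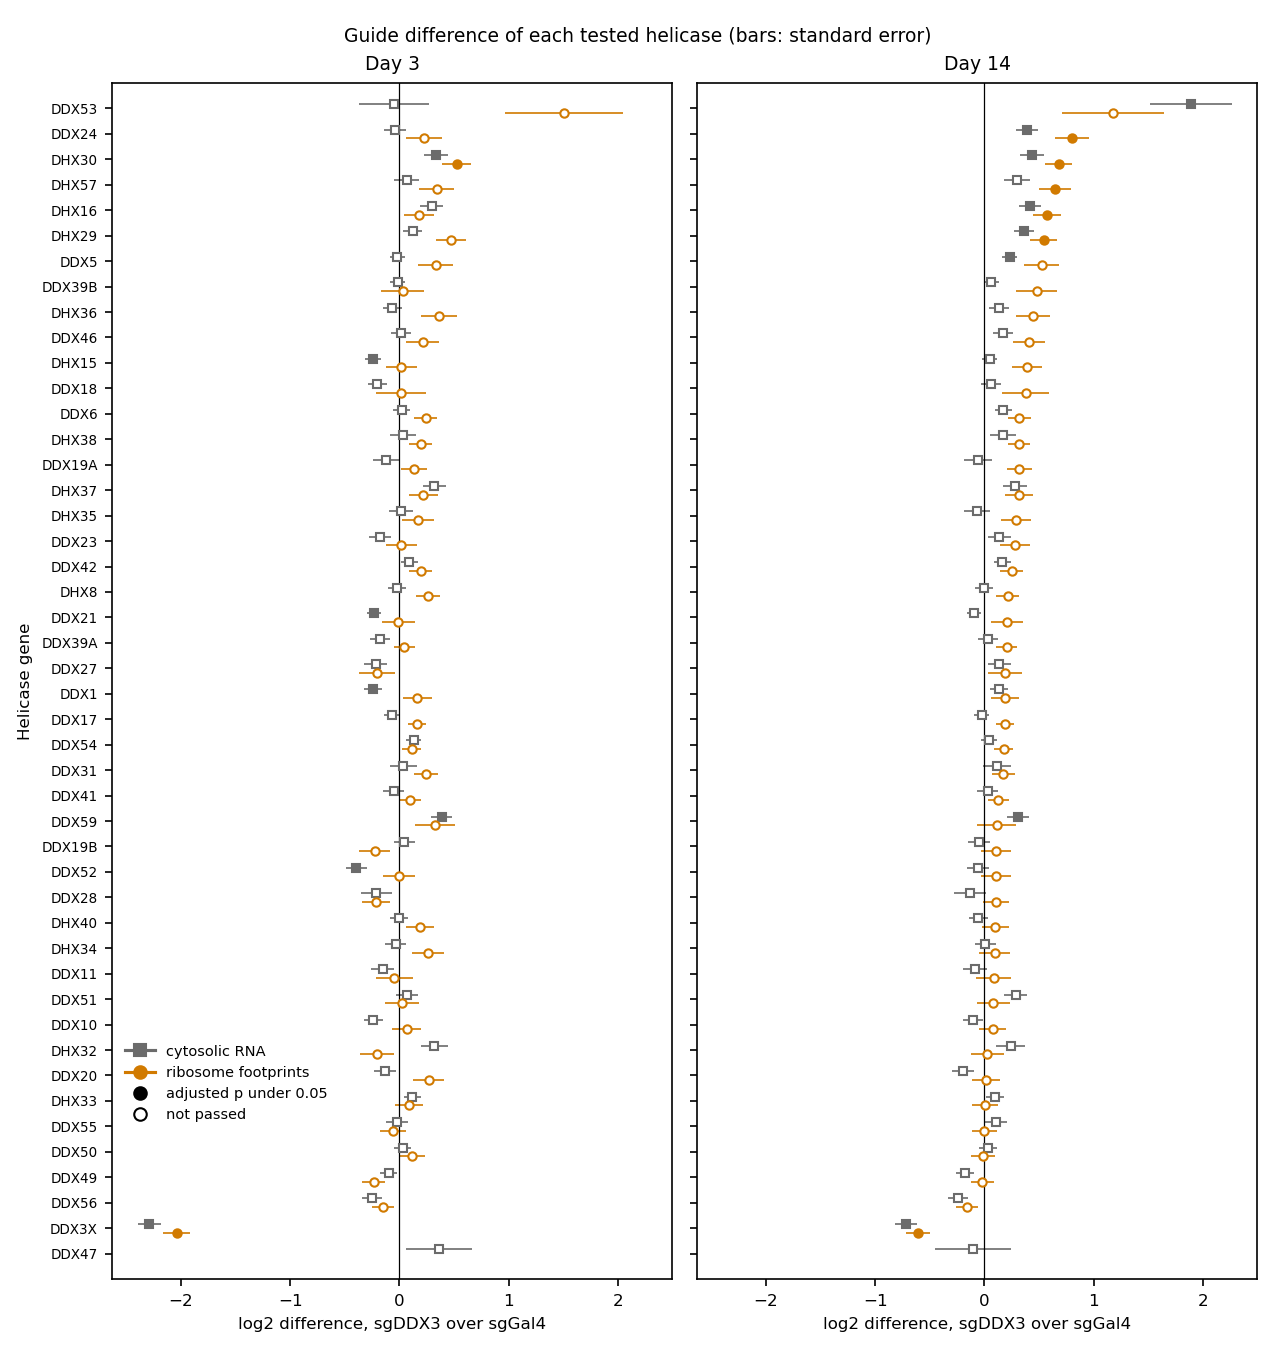
Log2 difference, sgDDX3 over sgGal4, of each tested helicase at day 3 (left) and day 14 (right), in RNA (grey squares) and footprints (orange circles), with bars for the SE and filled symbols for an adjusted p under 0.05, ordered by the footprint difference at day 14. DDX3X lies far to the left at day 3 (-2.29 in RNA) and nearer to 0 at day 14 (-0.72), and at day 14 most orange circles lie to the right of 0.

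Over the 44 helicases other than DDX3X, the footprint and RNA differences had a Pearson r of 0.26 and a Spearman rho of 0.43 at day 3, and an r of 0.77 and a rho of 0.62 at day 14. These are descriptions over genes that share their libraries and depth, and genes are not replicates. DDX53, on few counts, had the largest footprint difference at both days, 1.51 and 1.18. Its RNA difference was -0.05 at day 3 and the largest, 1.89, at day 14. No r or rho was computed without DDX53. The footprint difference was above the RNA difference in 33 of 44 at day 3 and 37 of 44 at day 14. Without sgDDX3 footprint replicate 1 or 2 of day 3, the r of that day was 0.14 or 0.38, the rho 0.18 or 0.50, and the count 37 or 24 of 44. No helicase passed for translational efficiency, where 0.00673% of all 14853 genes passed at day 0, 5.41% at day 3 and 1.72% at day 14. At an unadjusted p under 0.05 there were 2, 7 and 4 of 45 at the 3 days, where 2.64%, 17.1% and 12.2% of all genes reached it. The efficiency difference was above 0 in 32 of 44 at day 3 and 37 of 44 at day 14, where 54.0% and 54.7% of all genes were. The median efficiency difference of the 44 was 0.18 at day 3 and 0.17 at day 14, against 0.03 for all genes at both days, and the day 3 median was 0.26 or 0.02 without sgDDX3 footprint replicate 1 or 2. The efficiency difference of DDX53 at day 14, on few counts, was -0.69 ± 0.59 (adjusted p = 0.70). DDX24 had 1.52 footprint CPM per RNA CPM in sgDDX3 cells and 1.15 in sgGal4 cells (0.42 ± 0.19, adjusted p = 0.35). Without sgDDX3 footprint replicate 1 of day 3, 5 helicases passed at day 3, all higher, namely DDX1 (0.59), DDX5 (0.64), DDX21 (0.46), DDX24 (0.56) and DHX36 (0.68).

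At day 0 no helicase differed between the guides in either assay, where 0.00547% of all genes passed in RNA and 0.0101% in footprints by edgeR, and 1 of 46 in RNA and 1 of 45 in footprints had an unadjusted p under 0.05, where 4.55% and 4.85% of all genes did. When the difference at a later day was set against that of day 0, DDX3X was the only helicase to pass with all libraries and the low-count filter. In RNA it changed by -2.08 ± 0.14 at day 3 (adjusted p = 3.3e-08), where 3.70% of all genes passed, and by -0.51 ± 0.14 at day 14 (adjusted p = 0.037), where 4.46% passed. In footprints it changed by -1.93 ± 0.16 at day 3 (adjusted p = 0.00029), where 0.121% of all genes passed, and by -0.50 ± 0.15 at day 14, which did not pass (adjusted p = 0.29), where 0.106% did. From day 3 to day 14 the change passed for DDX3X alone in that fit, where 0.164% of all genes passed in RNA and 0.126% in footprints. Without sgDDX3 replicate 2 of day 3, DDX24 also passed from day 3 to day 14 (0.61 in RNA and 1.00 in footprints), and without sgDDX3 replicate 2 of day 14 DDX1 (0.48) and DDX53 (2.14) did so in RNA. In RNA from day 0 to day 14, DDX6 passed without sgDDX3 replicate 1 of day 14 (0.40), and DDX46 (0.37), DHX29 (0.44) and DHX37 (0.42) without replicate 2. The day 14 change of DDX3X RNA against day 0 was lost in 7 of 8 fits that left out 1 library, which gave -0.72 to -0.33, and was kept without sgDDX3 replicate 1 of day 14 (-0.72). Against day 0, the 4 helicases higher at day 14 in both assays read 0.29 to 0.39 in RNA and 0.54 to 0.76 in footprints, and none passed (lowest adjusted p = 0.089 for DHX29 in RNA and 0.25 for DDX24 in footprints) in that fit. Without a low-count filter the footprint change of DDX24 passed at day 14 against day 0 (0.77, adjusted p = 0.0021) and against day 3 (0.61, adjusted p = 0.047), and so did the RNA change of DDX53 at day 14 against day 3 (1.92, adjusted p = 0.023).

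Some helicases also changed over time with the control guide. In sgGal4 RNA at day 14 against day 0, 7 of 46 passed, 15.2% where 16.2% of all genes did. DHX8 (0.45 ± 0.08), which releases spliced mRNA from the spliceosome, DHX38 (0.39 ± 0.12), which acts at its second step, DDX5 (0.30 ± 0.07) and DDX54 (0.25 ± 0.07), a nucleolar factor, were higher, and DHX40 (-0.33 ± 0.08), DDX46 (-0.31 ± 0.09) and DDX6 (-0.26 ± 0.08) lower. DDX46 was also lower at day 3 (-0.33 ± 0.09), 1 of 46 or 2.17% where 5.68% of all genes passed. In sgGal4 footprints no helicase passed at day 3 by edgeR, where 1.26% of all genes did and 5 of 45 helicases had an unadjusted p under 0.05 where 14.7% of all genes had one, and at day 14 DDX5 (0.73 ± 0.16), DHX57 (0.69 ± 0.16) and DHX8 (0.45 ± 0.11) were higher, 3 of 45 or 6.67% where 2.47% of all genes passed. DDX5 and DHX57 footprints were thus higher at day 14 than at day 0 in control cells as well, with 308 and 380.1 CPM at day 14 against 210.0 and 206 CPM at day 0 for DDX5, and 14.4 and 15.2 CPM at day 14 against 9.28 and 8.99 CPM at day 0 for DHX57. Footprints of DHX30 (0.44, adjusted p = 0.0080) and DDX21 (0.42, adjusted p = 0.0058) also passed as higher in edgeR without a low-count filter. DHX30 footprints passed in DESeq2 too (0.47, adjusted p = 0.047). RNA of DHX30 (0.29, adjusted p = 0.011) and DHX16 (0.32, adjusted p = 0.019) passed as higher in edgeR without that filter. Without any 1 of the 4 sgGal4 libraries of its comparison no call was made for DDX54 (0.24 to 0.26), DDX6 (-0.26), DDX46 (-0.36 to -0.26 at day 14 and -0.39 to -0.28 at day 3), or the footprints of DHX57 (0.67 to 0.72) and DHX8 (0.44 to 0.46). DHX38 was lost without either day 0 library or day 14 replicate 1 (0.30 to 0.40), DHX40 without day 0 replicate 2 or either day 14 library (-0.35 to -0.31), and DDX5 without either day 0 library or day 14 replicate 2 (0.26 to 0.31 in RNA, 0.58 to 0.74 in footprints), while DHX8 in RNA was called in each.

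Summed over the 49 helicases other than DDX3X, RNA was 4397 and 4678 CPM with sgDDX3 at day 3, against 4715 and 4627 CPM with sgGal4. At day 14 it was 5113 and 5041 CPM with sgDDX3, against 4810 and 4830 CPM with sgGal4. The groups overlapped at day 3 and were apart at day 14, with sgDDX3 means at 97.1% and 105% of the sgGal4 means. Footprints summed to 2722 and 3384 CPM with sgDDX3 at day 3, against 2736 and 2835 CPM with sgGal4, and to 4012 and 3727 CPM with sgDDX3 at day 14, against 3060 and 3278 CPM with sgGal4. The day 3 footprint sums lay on both sides of the control sums and the day 14 sums lay above them, at 109.6% and 122% of the sgGal4 means. Footprint sums were already apart at day 0, by less, at 3001 and 2941 CPM with sgDDX3, against 2925 and 2785 CPM with sgGal4. No test was made of a sum, and without sgDDX3 replicate 1 or 2 the day 3 footprint figure was 121% or 97.7%, and without sgDDX3 replicate 1 that of RNA was 100.1%.

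Set in CPM beside the change of DDX3X itself, the other 49 together differed by -133 CPM in RNA at day 3 and 257 CPM at day 14, where DDX3X differed by -143 and -76.5 CPM. In footprints the others differed by 268 and 701 CPM at days 3 and 14, where DDX3X differed by -107 and -55.5 CPM. A sum of CPM weighs genes by their counts, which grow with transcript length as well as with level. DDX17 alone held 25.5% of the sgGal4 RNA sum at day 0, and without DDX17 and DDX5 the day 14 figures were 107% in RNA and 120.1% in footprints. DDX5 (151 CPM), DHX30 (58.5 CPM) and DDX24 (44.1 CPM) added most to the footprint difference at day 14. At day 0 the sgDDX3 sums were 101% of sgGal4 in RNA and 104% in footprints.

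**Figure D5:**
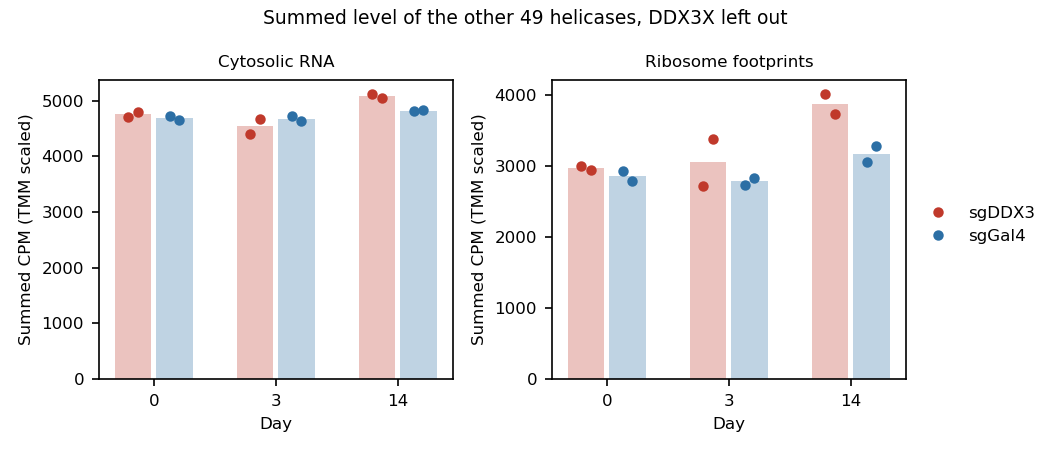
Summed scaled CPM of the 49 helicases other than DDX3X by library (points) and group mean (bars) at each day, RNA on the left and footprints on the right, sgDDX3 in red and sgGal4 in blue. The red footprint points lie a little above the blue ones at day 0 and on both sides of them at day 3. At day 14 they lie above them, at 4012 and 3727 against 3060 and 3278 CPM.

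A list of 20 other RNA helicases and eIF4F genes was read beside the family, with 19 tested in each assay. In RNA 5 were higher and 2 lower at day 3, where 7.68% of all genes were higher and 6.39% lower, and 9 higher and 2 lower at day 14, where 8.44% were higher and 6.18% lower. In footprints 2 were higher at day 3, where 1.55% of all genes were, and 7 at day 14, where 2.11% were, and none was lower. Set against day 0, the day 14 difference passed in 0 of the 19 in footprints and in 2, both higher, in RNA, where 0.106% and 4.46% of all genes passed. From day 0 to day 14 in sgGal4 cells, 2 were higher in footprints, and 4 were higher and 5 lower in RNA, where 2.47% and 16.2% of all genes passed. All these calls are of the fit of all libraries, and other settings are not given for this list. EIF4G1, the scaffold of the cap-binding complex, read highest in footprints at day 14 (1.16 ± 0.16, adjusted p = 0.0019), followed by the splicing helicase SNRNP200 (0.82 ± 0.14, adjusted p = 0.0080). EIF4A2, a DEAD-box initiation helicase whose symbol lies outside the naming pattern, rose in RNA (0.20 ± 0.07, adjusted p = 0.045) and in footprints (0.52 ± 0.12, adjusted p = 0.037) at day 14.

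The promoters of DHX30, DHX29, DDX24 and DHX16 are shown because these 4 genes were called higher in both assays at day 14. Each is the 250 bases before the first RefSeq start (GRCh38.p14, strand of the gene), with capitals for any of 5 sets of letters searched on both strands. The letters CACGTG are the core of an E-box. CCGGAAG is the core bound by many ETS factors. The sequence CCAAT is known from NF-Y promoters. Core promoters of another kind hold TATAAA near the start. GCGCATGC is part of the motif of NRF1. No 2 of these overlap in the windows shown. The windows are chr3:47802888-47803137 on the plus strand for DHX30, and on the minus strand chr5:55307695-55307944 for DHX29, chr14:94081203-94081452 for DDX24 and chr6:30673007-30673256 for DHX16. A match is a description of letters and not a bound site.
DHX30: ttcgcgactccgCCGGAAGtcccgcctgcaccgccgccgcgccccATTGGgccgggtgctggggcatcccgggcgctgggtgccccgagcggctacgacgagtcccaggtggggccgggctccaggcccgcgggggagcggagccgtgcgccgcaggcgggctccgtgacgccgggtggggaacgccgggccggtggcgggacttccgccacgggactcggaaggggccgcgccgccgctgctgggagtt
DHX29: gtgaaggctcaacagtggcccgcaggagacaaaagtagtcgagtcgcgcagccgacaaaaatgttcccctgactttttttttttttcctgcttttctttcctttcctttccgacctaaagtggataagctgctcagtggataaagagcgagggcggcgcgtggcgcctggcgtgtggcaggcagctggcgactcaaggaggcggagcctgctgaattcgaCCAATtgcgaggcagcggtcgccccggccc
DDX24: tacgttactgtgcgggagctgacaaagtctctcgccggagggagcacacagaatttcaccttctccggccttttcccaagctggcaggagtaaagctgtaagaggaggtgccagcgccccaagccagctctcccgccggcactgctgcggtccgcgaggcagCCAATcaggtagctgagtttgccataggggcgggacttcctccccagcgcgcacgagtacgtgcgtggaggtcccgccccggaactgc
DHX16: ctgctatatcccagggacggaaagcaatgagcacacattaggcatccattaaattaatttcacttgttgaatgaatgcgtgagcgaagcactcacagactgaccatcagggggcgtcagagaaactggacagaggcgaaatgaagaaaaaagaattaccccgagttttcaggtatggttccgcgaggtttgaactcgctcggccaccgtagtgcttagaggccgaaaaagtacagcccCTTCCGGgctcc

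DHX30 held CCGGAAG 238 bases before its start and CCAAT, on the other strand, 205 bases before it. DHX29 and DDX24 held CCAAT 30 and 88 bases before their starts, and DHX16 held CCGGAAG on the other strand 12 bases before its start. None of the 5 was in all 4 windows. Of 46 helicases in the promoter table, 18 (39.1%) had CCGGAAG in a window of any of their starts, where 14.0% of 15843 protein-coding genes did, 9 (19.6%) had CACGTG, where 9.73% did, and 23 (50.0%) had CCAAT, where 40.2% did. TATAAA was in 4 (8.70%), where 11.9% of coding genes had it, and GCGCATGC in 3 (6.52%), where 4.34% had it. Of the 8 helicases higher at day 14 in either assay, 5 had CCGGAAG and 6 CCAAT. No test was made of these shares, and 10 of the 46 helicases have more than 1 start.

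Reads of some members may be shared with close copies, since the counting of reads that map to several places is not given in the sources used here. DDX39A and DDX39B, DDX19A and DDX19B, DDX11, and members with processed pseudogenes such as DDX6, DDX18, DDX10, DDX50 and DHX40 are uncertain for this reason, and so are genes overlapped by an antisense gene such as DDX39B.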

How the data were processed

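The values are raw read counts of genes as the authors deposited them, in a table for each assay. The submitters' processing notes name STAR 2.7.5a, Bowtie2 2.4.1, cutadapt 3.4, DESeq2 and the build GRCh38, without their roles. The counter and its strand setting were not given in the sources used here. Of 58037 genes, 45 Y-linked copies of pseudoautosomal genes were left out, and symbols were found for 41445 (71.5%).

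The members and lists were chosen with earlier results of these data known. Tests used edgeR 4.0.16 in R 4.3.3, with trimmed mean of M values (TMM) scaling within each assay, filterByExpr (minimum count 10), the quasi-likelihood F-test over all 12 libraries of an assay, and Benjamini-Hochberg adjustment over all genes (18287 in RNA, 19780 in footprints), with a threshold of 0.05. Translational efficiency was the interaction of guide and assay over 24 libraries (14853 genes). The scripts were tested on simulated data. CPM are scaled by TMM. Named with values are DDX3X, DDX5, DDX6, DDX21, DHX15, every helicase that passed between the guides at day 3 or 14 or in the change between them, and the most counted member of each role. Alternatives were DESeq2 1.42.0, its size factors in edgeR, no low-count filter, a replicate block and leaving out each library. Promoters are from RefSeq, for 46 of 50 members.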

Additional observations from a re-analysis of the deposited data

Results flagged for a closer look

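DDX3X was the only helicase whose guide difference changed between days past the threshold, by the interaction test in edgeR with the low-count filter and all libraries. In RNA the log2 difference, sgDDX3 over sgGal4, changed by -2.08 at day 3 against day 0, by -0.51 at day 14 against day 0, and by 1.57 at day 14 against day 3. In footprints it changed by -1.93 at day 3 against day 0 and by 1.43 at day 14 against day 3. The RNA change at day 14 against day 0 was called in 1 of 8 fits that left out 1 library, and the others were called in every setting run.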

How the results depend on the processing

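Every call of a helicase other than DDX3X between the guides at day 3 or 14 was lost in at least 1 setting, except that of DDX53 in RNA at day 14, for which DESeq2 gave no adjusted p. Depth limits the germline helicases. Leaving out a library leaves 1 in its arm, whose spread is assumed to be that of the other groups. Likeness of the proteins to DDX3X was not analysed here, since no protein table was used. Leaving out a library for the sums and for the day 3 footprint summaries was chosen after seeing the data. No called direction reversed in any setting run, and the causes of the changes below were not tested.

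Counts of called helicases moved past 1.5 times in these settings. Without a low-count filter there were 10 in footprints at day 14 (6 with it), 2 in the day 14 minus day 3 change of RNA and 2 in that of footprints (1 and 1), 1 in footprints at day 0 (0), 1 in the day 14 minus day 0 change of footprints (0), and in sgGal4 footprints 1 at day 3 (0) and 5 at day 14 (3). With the replicate block there was 1 in footprints at day 3 (2). The replicate numbers are not shown to pair libraries, with correlations of same-numbered deviations of -0.13 to 0.06 in RNA and -0.26 to 0.22 in footprints, and with the block the counts were 5 in RNA at day 3 (7 without), 7 at day 14 (8) and 6 in footprints at day 14 (6).

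Without 1 library, the counts ranged from 2 to 8 in RNA at day 3, from 3 to 10 in RNA at day 14, from 0 to 3 for the RNA change of day 14 minus day 0, from 1 to 3 for that of day 14 minus day 3, from 1 to 6 in footprints at day 3, from 1 to 3 in footprints at day 14, from 1 to 2 for the footprint change of day 14 minus day 3, and from 0 to 5 for translational efficiency at day 3. In sgGal4 they ranged from 0 to 0 for RNA at day 3, from 2 to 2 for RNA at day 14, and from 0 to 1 for footprints at day 14. The footprint difference of DDX3X at day 14 ranged from -0.68 to -0.56, and without sgDDX3 replicate 2 it did not pass.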
